A study of Capra hircus with 6 samples.

Results

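The mRNA levels of 39 genes of the Polycomb, trithorax and DNA methylation systems were examined in the hypothalamus of pubertal and prepubertal goats. The genes were taken by symbol from 20225 genes of the mRNA table, and all 39 were found there. They comprised 19 Polycomb genes (7 of Polycomb repressive complex 2, PRC2, and 12 of complex 1, PRC1), 10 trithorax genes, 5 histone demethylases and 5 genes of DNA methylation. Whole hypothalamus came from 6 female Anhuai goats, 3 pubertal goats aged 4.5 to 5.0 months, taken in the late follicular phase, and 3 prepubertal goats aged 2.5 to 3.0 months. One strand-specific library depleted of ribosomal RNA was made per goat, and age and cycle phase cannot be told apart from stage in this design. The level of a gene was its FPKM, the fragments scaled by transcript length and by the mapped fragments of the library, summed over its transcripts, so that levels of different genes could be compared per length. The table holds no read counts, so the number of fragments behind each value is not given.

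Polycomb and trithorax proteins keep opposite states of chromatin. PRC2 methylates histone H3 at lysine 27 through EZH1 or EZH2, PRC1 binds this mark through its CBX proteins and ubiquitinates histone H2A, and both keep genes silent. Of the trithorax proteins, KMT2A, KMT2C, KMT2D, SETD1A and SETD1B methylate lysine 4 of histone H3 at active genes. The KDM6 enzymes remove the Polycomb mark, KDM5 enzymes and KDM1A remove methyl groups from lysine 4, DNMT enzymes methylate cytosine in DNA, and TET enzymes oxidise that methyl group. In the female rat hypothalamus, EED and CBX7 are known to sit at the promoter of Kiss1, which drives the secretion of gonadotropin-releasing hormone, and to leave it as puberty nears while KMT2 proteins take their place. The comparison asked whether the mRNA of repressors and activators differed between the stages in the goat.

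No gene of the 39 differed between the stages past an adjusted p of 0.05 (limma on log2(FPKM + 1), Benjamini-Hochberg over 16397 genes tested), and the share of all genes called was 0%. An unadjusted p under 0.05 was reached by 0 of the 39 genes in either direction, beside 3.51% of all genes tested in the higher and 1.65% in the lower direction. Their adjusted p began at 0.962. The 3 pubertal values lay wholly above the prepubertal ones in 1 gene, KDM6B, and wholly below them in 0, beside 5.91% and 3.84% of all genes. Without pubertal replicate 1, SETD1A was higher and BMI1 and CBX6 lower at an unadjusted p under 0.05, and the stages did not overlap in 5 genes that were higher and 7 that were lower, while among all 16397 genes 981 were higher and 1239 lower at that p and these numbered 2398 and 2994. Of all genes with an unadjusted p under 0.05, 68.0% were higher in pubertal goats, or 52.7% after centring on library medians. The 95% interval of the difference stayed within 1.25-fold for 19 genes, within 1.5-fold for 35 and within 2-fold for all 39. These folds, and those below, are of FPKM + 1, and for genes near 1 FPKM or less, such as KDM6B, SETD1B and CBX2, they allow larger folds in FPKM itself. Because the tissue is a mixture of cells, fewer cells of a type and less RNA per cell cannot be told apart.

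Some libraries stood apart in other genes. Pubertal replicate 3 held 309 FPKM of the choroid plexus gene TTR, beside 1.14 to 53.4 FPKM in the other libraries, and 429 FPKM of POMC, beside 22.9 to 85.1 FPKM. The summed level of 5 leptomeningeal fibroblast genes ran from 109 to 260 FPKM in the pubertal and from 41.8 to 81.4 FPKM in the prepubertal goats, with 4 of 5 not overlapping. Endothelial and mural genes summed to 99.1 to 144 FPKM against 72.5 to 95.6 FPKM, with 2 of 5 not overlapping. The 6 pituitary and pars tuberalis genes summed to 52.8 to 66.0 FPKM against 3.75 to 20.9 FPKM, with 2 not overlapping, and 5 choroid plexus genes summed to 4.49 to 328 FPKM against 6.49 to 56.4 FPKM. Neuron genes (1118 to 1359 FPKM against 1278 to 1391), astrocyte genes (3991 to 4333 against 4076 to 4234), oligodendrocyte genes (1486 to 4664 against 1097 to 2290) and genes of dividing cells (33.9 to 37.9 against 32.9 to 39.1) overlapped in their sums. So did microglia genes (248 to 293 against 238 to 276) and hypothalamic neuron genes (1096 to 2279 against 1198 to 2263). Yet 1 of 5 astrocyte, 1 of 5 microglia and 1 of 9 hypothalamic neuron genes tested did not overlap and were higher in pubertal goats. Among all genes tested 5.91% did not overlap and were higher. Hypothalamic identity rested on 10 of 14 marker genes with a row, of which AVP was listed at 0 in all libraries. No marker passed the adjusted threshold, and the part of these cell types in the results was not tested. The genes described with their full fit and its interval are therefore also given without pubertal replicate 3.

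**Figure D1:**
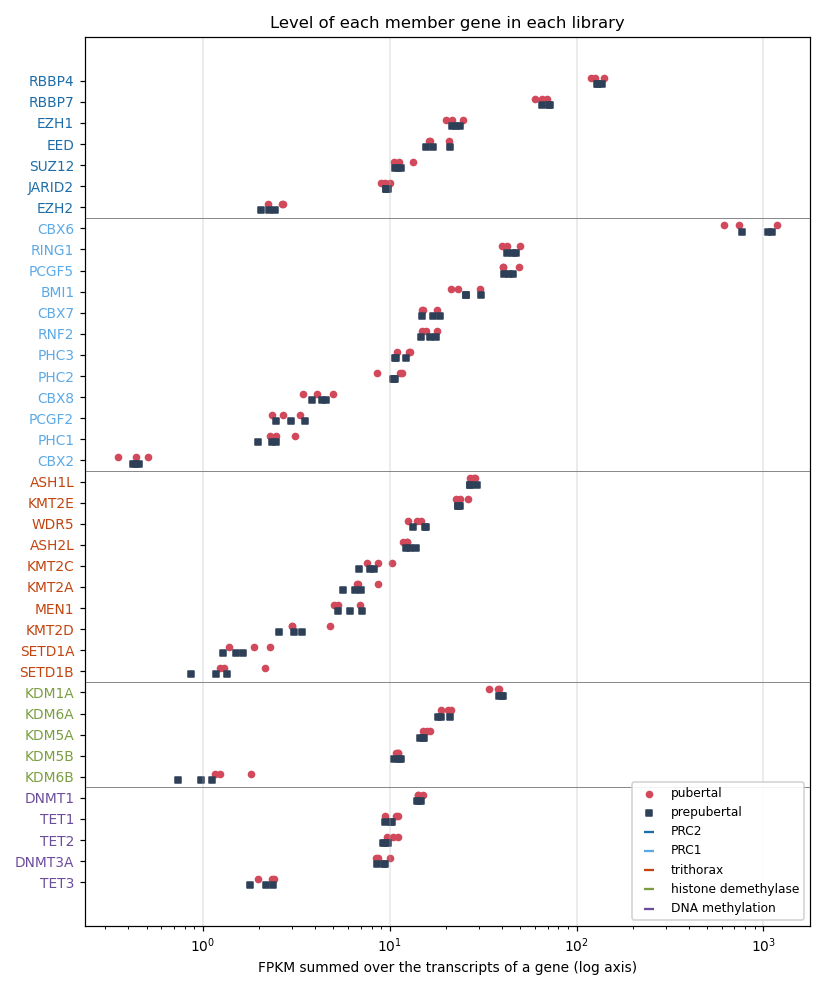
FPKM summed over the transcripts of each of the 39 genes (log axis), 1 point per library, with circles for pubertal and squares for prepubertal goats. Within each system the genes are ordered by mean level, from RBBP4 to EZH2 in PRC2, and only in KDM6B do the circles all lie to the right of the squares.

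The mRNA of each PRC2 gene examined was found in every library. The histone chaperones RBBP4 and RBBP7, which also serve other complexes, had the highest levels, with means over the 6 libraries of 130.4 ± 7.66 and 67.2 ± 4.42 FPKM (SD). EZH1, the methyltransferase of cells that no longer divide, followed at 22.4 ± 1.71 FPKM and overlapped with EED at 17.9 ± 2.40 FPKM. SUZ12, which holds the core together, had 11.4 ± 1.03 FPKM and JARID2, which helps to bring PRC2 to chromatin, had 9.57 ± 0.355 FPKM. EZH2, the methyltransferase that dividing cells use, was lowest at 2.39 ± 0.251 FPKM. Apart from EZH1 and EED, the ranges of neighbours in this order did not overlap.

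EED (gene 102191771), the subunit that reads the Polycomb mark and stimulates the enzyme, had 20.8, 16.2 and 16.5 FPKM in the pubertal goats and 17.1, 21.0 and 15.7 FPKM in the prepubertal goats. One goat of each stage was high and the others low, so the stages overlapped throughout. The log2 fold change was -0.0052 ± 0.14 (SE, n = 3 per stage, limma adjusted p = 0.999), with an interval of 0.797-fold to 1.246-fold, and its sign turned when single libraries were left out (0.04 without pubertal replicate 3).

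EZH2 (gene 102190101) had the largest difference within PRC2. Its levels were 2.67, 2.69 and 2.25 FPKM in the pubertal and 2.06, 2.26 and 2.42 FPKM in the prepubertal goats. Pubertal replicate 3 lay among the prepubertal values. The log2 fold change was 0.12 ± 0.12 (SE, limma adjusted p = 0.962), with an interval of 0.904-fold to 1.31-fold, and it was 0.18 without pubertal replicate 3 and 0.25 with the most abundant transcript only. That transcript held 88.4% and 75.2% of EZH2 in prepubertal replicates 1 and 2 and nearly all of it in the other libraries. EZH1 had 24.8, 21.5 and 20.1 FPKM against 22.6, 23.9 and 21.6 FPKM, a log2 fold change of -0.04. The ratio of EZH1 to EZH2 within a library was 9.30, 8.02 and 8.97 in the pubertal and 11.0, 10.6 and 8.92 in the prepubertal goats. These ratios overlapped, and their log2 difference of -0.21 had an exact permutation p of 0.3, adjusted to 0.4 over the 4 ratios examined, where 3 against 3 goats cannot give a p under 0.1. With the most abundant transcript of each gene only, the difference was -0.01.

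The other subunits differed by less. SUZ12 had 13.4, 10.5 and 11.3 FPKM against 10.7, 11.4 and 11.1 FPKM, and its high value in pubertal replicate 1 set it apart from the remaining libraries. JARID2 ranged from 8.99 to 10.1 FPKM over all 6 goats. RBBP4 had 141, 119 and 126 FPKM against 129, 136 and 130 FPKM, and RBBP7 had 69.5, 60.1 and 65.4 FPKM against 71.7, 70.9 and 65.4 FPKM. In PRC2 as a whole 2 of 7 genes lay above 0 and 5 below, with log2 fold changes from -0.09 to 0.12 and a median of -0.02.

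PRC1 spanned a wider range of levels. Its listed level was highest for CBX6, at 912 ± 233 FPKM, but this rested on a single transcript model of 234 nt, a length at which FPKM is imprecise, and it is not comparable with the other genes. RING1 (44.7 ± 3.65 FPKM) and RNF2 (16.2 ± 1.39 FPKM) are the ubiquitin ligases of the complex. They overlapped in level with the ring finger partner PCGF5 (43.5 ± 3.63 FPKM) and with CBX7 (16.4 ± 1.67 FPKM), respectively. BMI1, the partner known for keeping stem cells dividing, had 26.1 ± 3.85 FPKM. At the low end were PCGF2 (2.88 ± 0.470 FPKM), PHC1 (2.44 ± 0.381 FPKM) and CBX2 (0.436 ± 0.0514 FPKM).

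CBX7 (gene 102184604), a reader of the Polycomb mark, had 15.04, 17.9 and 14.8 FPKM in the pubertal and 18.5, 14.9 and 17.0 FPKM in the prepubertal goats. High and low libraries occurred in both stages. Its log2 fold change was -0.07 ± 0.12 (SE, n = 3 per stage, limma adjusted p = 0.970), with an interval of 0.788-fold to 1.15-fold. It stayed below 0 under every alternative tried, from -0.16 to -0.0034, and was -0.03 without pubertal replicate 3.

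CBX6 (gene 106502152), another CBX reader, had the largest difference within PRC1. Its values were 1186, 617 and 740 FPKM against 1054, 767 and 1110 FPKM. The highest and the lowest library were both pubertal. The log2 fold change was -0.24 ± 0.25 (SE, limma adjusted p = 0.962), and its interval of 0.564-fold to 1.27-fold was the widest of the 39 genes. It was -0.51 without pubertal replicate 1, -0.04 without pubertal replicate 2, -0.17 without pubertal replicate 3, -0.41 without prepubertal replicate 2, -0.18 without prepubertal replicate 1 and -0.14 without prepubertal replicate 3.

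Of the partner proteins, BMI1 had 30.6, 23.1 and 21.2 FPKM against 25.5, 30.7 and 25.7 FPKM, so that pubertal replicates 2 and 3 lay below all prepubertal goats while replicate 1 came close to their top. PCGF5 had 49.4, 40.4 and 40.3 FPKM against 43.7, 46.0 and 41.2 FPKM, again with pubertal replicates 2 and 3 below all prepubertal goats. PCGF2 ranged from 2.35 to 3.53 FPKM. The ligases showed no common order, with 42.5, 50.1 and 40.1 FPKM against 42.6, 45.7 and 47.3 FPKM for RING1 and 18.0, 14.9 and 15.6 FPKM against 14.7, 17.7 and 16.3 FPKM for RNF2.

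The polyhomeotic proteins PHC1, PHC2 and PHC3 let PRC1 form larger assemblies. PHC1 had 2.30, 2.47 and 3.12 FPKM against 1.96, 2.34 and 2.47 FPKM, a log2 fold change of 0.15 ± 0.13 (SE, limma adjusted p = 0.962). Its highest value came from pubertal replicate 3. PHC2 had 8.50, 11.3 and 11.7 FPKM against 10.4, 10.5 and 10.7 FPKM. The pubertal goats thus lay on either side of the tight prepubertal values. PHC3 ranged from 10.7 to 12.9 FPKM, CBX8 from 3.44 to 4.97 FPKM and CBX2 from 0.351 to 0.510 FPKM. In PRC1 2 of 12 genes, PHC1 and PHC3, lay above 0 and 10 below, with a median log2 fold change of -0.02.

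Trithorax genes ran down from ASH1L to SETD1B. ASH1L, a methyltransferase of lysine 36 of histone H3, led with 27.8 ± 1.14 FPKM, followed by KMT2E at 23.8 ± 1.24 FPKM. WDR5 (14.3 ± 1.25 FPKM) and ASH2L (12.6 ± 0.714 FPKM), shared core subunits of the KMT2 and SETD1 complexes, overlapped with each other. The level of WDR5 rested on a single transcript model of 588 nt, the shortest of the trithorax genes, which limits its comparison with the others. The methyltransferases themselves were lower, from KMT2C (8.26 ± 1.16 FPKM) and KMT2A (6.89 ± 0.990 FPKM) through KMT2D (3.31 ± 0.790 FPKM) to SETD1A (1.66 ± 0.368 FPKM) and SETD1B (1.34 ± 0.431 FPKM). MEN1, the subunit menin of the KMT2A complex, had 5.97 ± 0.910 FPKM.

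KMT2A (gene 102169033) had 6.78, 6.68 and 8.67 FPKM in the pubertal and 5.66, 6.52 and 7.06 FPKM in the prepubertal goats. KMT2C (gene 102181925), a methyltransferase of enhancers, had 8.69, 7.58 and 10.3 FPKM against 6.88, 8.25 and 7.86 FPKM. In both, pubertal replicate 3 was highest and prepubertal replicate 1 lowest, and the other libraries overlapped. Log2 fold changes were 0.17 ± 0.13 (SE, interval 0.910-fold to 1.40-fold) for KMT2A and 0.18 ± 0.13 (interval 0.918-fold to 1.40-fold) for KMT2C, each with a limma adjusted p of 0.962. Without pubertal replicate 3 these values were 0.07 and 0.08.

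SETD1B (gene 102179971), which methylates lysine 4 at promoters, had the largest difference of the trithorax genes. It had 1.23, 1.30 and 2.15 FPKM against 0.863, 1.18 and 1.345 FPKM, again with pubertal replicate 3 highest and prepubertal replicate 1 lowest. Its log2 fold change was 0.26 ± 0.17 (SE, limma adjusted p = 0.962, interval 0.915-fold to 1.56-fold), and was 0.10 without pubertal replicate 3 and 0.41 with a pseudocount of 0.1. The related SETD1A had 1.38, 1.89 and 2.28 FPKM against 1.28, 1.51 and 1.63 FPKM. KMT2D had 2.997, 3.006 and 4.82 FPKM against 2.55, 3.06 and 3.41 FPKM. The same libraries formed the extremes in both genes.

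The shared subunits lay on the other side of 0. WDR5 had 14.0, 14.6 and 12.5 FPKM against 15.6, 15.5 and 13.3 FPKM, and ASH2L had 12.4, 12.4 and 11.8 FPKM against 13.9, 12.2 and 12.8 FPKM. MEN1 had 5.30, 6.97 and 5.06 FPKM against 7.14, 5.28 and 6.10 FPKM. Their log2 fold changes were -0.10, -0.08 and -0.08. ASH1L (26.8 to 29.5 FPKM over the 6 goats) and KMT2E (22.6 to 26.1 FPKM) differed little. KMT2A, KMT2C, KMT2D, SETD1A and SETD1B thus had values above 0 and these 3 subunits values below 0, and none passed the test. The transcripts of these enzymes were also longer (4276 to 18361 nt) than those of WDR5 (588 nt), MEN1 (2615 nt) and ASH2L (3974 and 3992 nt). ASH1L (11785 nt) and KMT2E (6712 nt) were long too. Over all genes, the median log2 fold change was -0.03 where the most abundant transcript was under 1000 nt and 0.03 where over 6000 nt. The part of length in this split was not tested.

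KDM6B (gene 102168575), an enzyme that removes the Polycomb mark, was the only gene of the 39 whose stages did not overlap. It had 1.16, 1.23 and 1.81 FPKM in the pubertal and 0.739, 0.9753 and 1.12 FPKM in the prepubertal goats, or 1.40 ± 0.354 against 0.946 ± 0.194 FPKM (SD, n = 3). The gap between the lowest pubertal and the highest prepubertal goat was small beside the spread within each stage. On the log2 scale the fold change was 0.30 ± 0.14 (SE, limma adjusted p = 0.962), with an interval of 0.976-fold to 1.55-fold. Without pubertal replicate 3 it was 0.18, and with a pseudocount of 0.1 it was 0.51. The value rested on 1 transcript of 3114 nt, and 1 of 39 genes without overlap is a share below the 5.91% of all genes.

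The other demethylases had higher levels. KDM6A, which acts on the same mark, had 20.6, 18.8 and 21.4 FPKM against 18.1, 21.1 and 18.8 FPKM. The ratio of KDM6B to KDM6A was 0.0565, 0.0656 and 0.0847 in the pubertal and 0.0407, 0.0463 and 0.0597 in the prepubertal goats. The lowest pubertal ratio lay below the highest prepubertal one, and the log2 difference of 0.49 had an exact permutation p of 0.2 (adjusted p = 0.4), and was 0.33 without pubertal replicate 3. KDM1A, which removes methyl groups from lysine 4 within repressor complexes, had 38.6, 37.9 and 34.1 FPKM against 40.3, 39.98 and 38.5 FPKM. Only pubertal replicate 1 reached into the prepubertal range, just above its lowest value, and the log2 fold change was -0.10 (limma adjusted p = 0.962).

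KDM5A had 16.5, 15.02 and 15.9 FPKM against 15.2, 15.1 and 14.5 FPKM, while KDM5B ranged only from 10.6 to 11.4 FPKM. Their ratio was 1.49, 1.39 and 1.43 in the pubertal and 1.44, 1.32 and 1.30 in the prepubertal goats. Prepubertal replicate 1 lay within the pubertal range and the other prepubertal goats below it, and the log2 difference was 0.09 (exact permutation p = 0.3, adjusted p = 0.4).

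DNA methylation genes varied little between goats. DNMT1, which copies methylation after replication, had 15.1, 14.2 and 14.2 FPKM against 14.3, 14.1 and 14.6 FPKM, and DNMT3A, which methylates DNA anew and is active in neurons, had 8.47, 8.69 and 10.03 FPKM against 9.39, 8.52 and 9.29 FPKM. Neither stage was higher in either gene beyond the spread between goats. The ratio of DNMT3A to DNMT1 was 0.560, 0.612 and 0.707 against 0.655, 0.606 and 0.635 (log2 difference -0.02, exact permutation p = 0.9, adjusted p = 0.9). The pubertal ratios spread on both sides of the prepubertal ones.

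TET2 (gene 102191595), an enzyme that oxidises methylcytosine, had the largest difference in this set. It had 9.67, 10.4 and 11.1 FPKM against 9.23, 9.85 and 9.42 FPKM. Pubertal replicate 1 lay below the highest prepubertal goat, and the other pubertal goats lay above all of them. The log2 fold change was 0.12 ± 0.10 (SE, limma adjusted p = 0.962), with an interval of 0.927-fold to 1.27-fold, and was 0.07 without pubertal replicate 3. TET1 had 10.8, 9.39 and 11.1 FPKM against 9.50, 10.3 and 10.1 FPKM and TET3 had 1.97, 2.34 and 2.41 FPKM against 2.17, 1.79 and 2.37 FPKM. Both overlapped throughout, and 4 of the 5 genes lay above 0, with a median log2 fold change of 0.05.

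**Figure D2:**
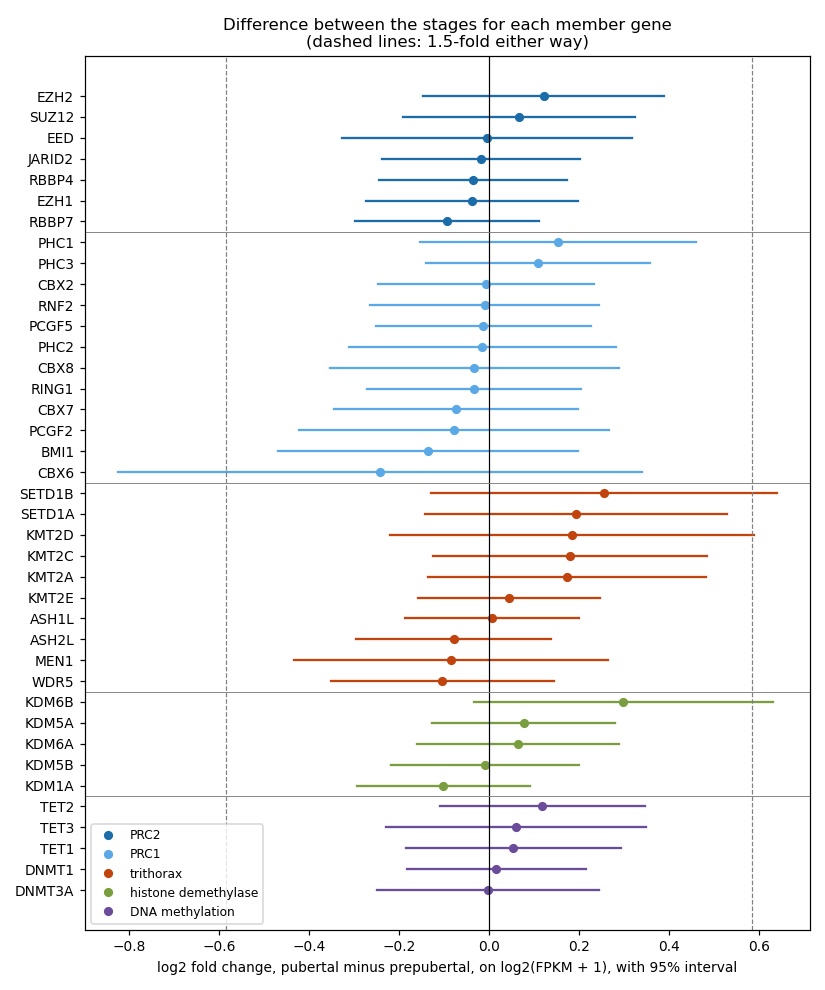
Log2 fold change of each gene, pubertal minus prepubertal, on log2(FPKM + 1), with the 95% interval of the limma fit as a line and dashed lines at 1.5-fold. Each interval crosses 0, and those of CBX6, KMT2D, SETD1B and KDM6B reach past 1.5-fold.

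Polycomb repressors were next set against trithorax activators. Of the 19 Polycomb genes 4 had a log2 fold change above 0 and 15 below, and of the 10 trithorax genes 7 lay above and 3 below, beside 8160 above and 8237 below among all genes tested. The median log2 fold change was -0.02 for Polycomb and 0.11 for trithorax, beside -0.00065 for all genes. Without pubertal replicate 3 the Polycomb genes split 10 above and 9 below with a median of 0.01, and the trithorax genes 6 above and 4 below with a median of 0.03. The Polycomb split was also 9 above and 10 below without pubertal replicate 2, and the trithorax split 5 and 5 without pubertal replicate 1. Under quantile normalization 7 Polycomb genes lay above 0 and 12 below. Among further genes of the same systems, given below, the medians were 0.029 for Polycomb and 0.038 for trithorax. No test of these lists was made.

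The mean of log2(FPKM + 1) over the Polycomb genes was 4.18, 4.07 and 4.07 in the pubertal and 4.10, 4.15 and 4.14 in the prepubertal goats. For trithorax it was 3.06, 3.08 and 3.22 against 2.999, 3.05 and 3.08. Polycomb minus trithorax, within a library, was 1.12, 0.98 and 0.85 in the pubertal and 1.10, 1.09 and 1.06 in the prepubertal goats. The prepubertal goats lay close together, while the pubertal goats ran from above to well below them, so the stages overlapped. The means were 0.99 ± 0.14 and 1.08 ± 0.022 (SD, n = 3), a difference of -0.10, which became -0.03 without pubertal replicate 3, -0.17 without pubertal replicate 1 and -0.08 without CBX6.

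**Figure D3:**
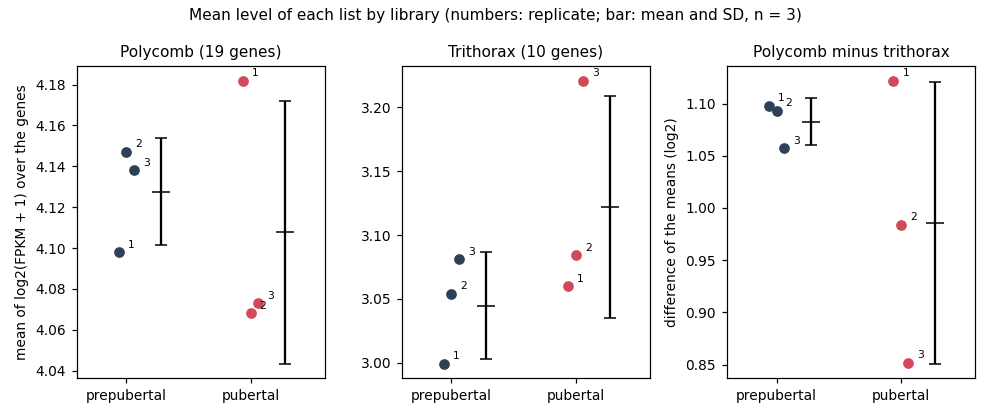
Mean of log2(FPKM + 1) over the 19 Polycomb genes, over the 10 trithorax genes, and the first minus the second, by library (axes do not start at 0; numbers give the replicate, bars the mean and SD of 3 goats). The difference is 0.85 in pubertal replicate 3 and 1.12 in pubertal replicate 1, with the prepubertal goats between 1.06 and 1.10.

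Libraries of 1 stage also differed from each other. Pubertal replicate 3 was highest and prepubertal replicate 1 lowest in 9 of the 39 genes, namely PHC1, KMT2A, KMT2C, KMT2D, SETD1A, SETD1B, KDM6A, KDM6B and TET2. This pattern was seen after the values and held for 1052 of all 16397 genes (6.42%) against 23.1% of the 39. These libraries also had the highest and the lowest median log2(FPKM + 1) over all genes tested, 3.48 and 3.40, beside 3.41 to 3.43 in the others. After centring every library on its median, the log2 fold change of KDM6B was 0.26 and the trithorax median 0.07. The median of all genes moved alike, to -0.04, so the trithorax median lay 0.11 above it before and after centring. Among Polycomb genes, pubertal replicate 1 was highest in 8 of 19 and pubertal replicate 3 lowest in 6. Over genes whose most abundant transcript exceeds 6000 nt, the median deviation on the log2 scale was 0.08, -0.06 and 0.02 in the pubertal and -0.05, 0.02 and -0.02 in the prepubertal goats. The Polycomb minus trithorax difference stayed at -0.10 in the 9 Polycomb and 8 trithorax genes of 3000 nt or more, where the trithorax median was 0.18. This cut did not match lengths, as the Polycomb genes kept reached 8173 nt and the trithorax genes 18361 nt. It also left out WDR5 and MEN1, which lay below 0.

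**Figure D4:**
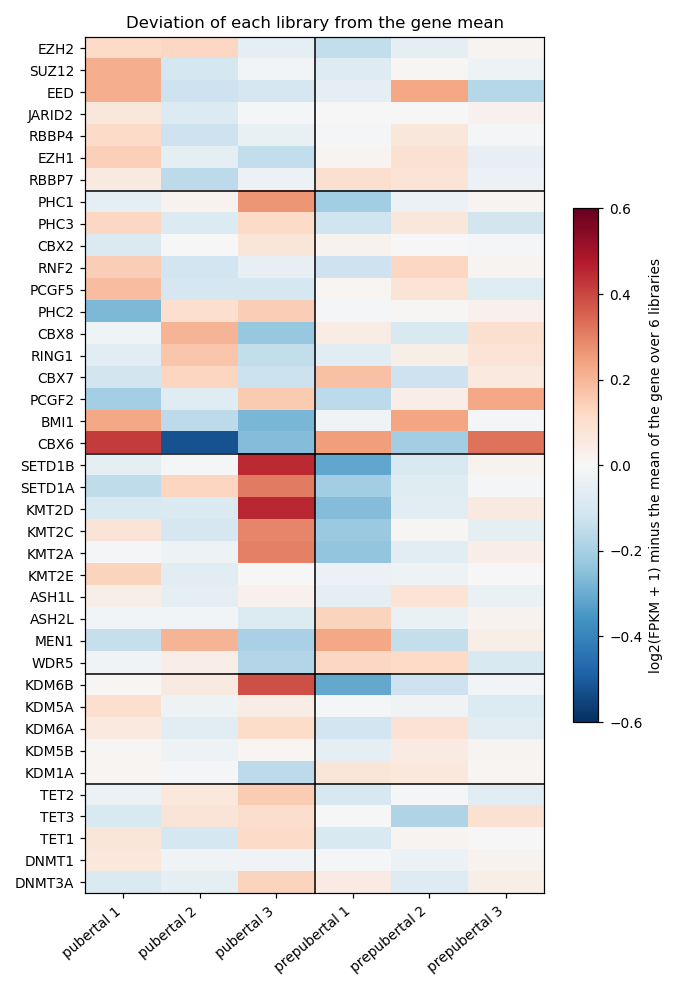
Deviation of each library from the mean of the gene on log2(FPKM + 1), with genes in rows by system and libraries in columns, pubertal goats on the left (red above, blue below the mean). SETD1B, SETD1A, KMT2D, KMT2C, KMT2A and KDM6B are red in pubertal replicate 3 and blue in prepubertal replicate 1.

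The 39 genes had 70 transcripts, and 27 genes had a single one. Of the 65 tested, 0 reached an adjusted p under 0.05 (0% of all 23821 transcripts tested) and 0 an unadjusted p under 0.05 (4.87% of all). Stages did not overlap in 7 transcripts, or 1 each of EZH2, KDM1A, RBBP7, TET1 and KDM6B and 2 of KDM6A, beside 9.56% of all transcripts. The EZH2 transcript, XM_013963566.1, was at or near 0 in the pubertal goats and in prepubertal replicate 3. It had 0.238 and 0.561 FPKM in prepubertal replicates 1 and 2. The transcripts named here other than that of KDM6B were chosen after their values were seen. TET1 transcript XM_005699119.2 had 2.77, 2.01 and 1.81 FPKM against 0.906, 1.37 and 1.74 FPKM (limma adjusted p = 0.972). KDM1A transcript XM_005676880.2, which held 65.8% of its gene, had 25.8, 21.2 and 22.4 FPKM against 28.4, 26.95 and 26.3 FPKM (limma adjusted p = 0.972). The TET1 transcript was higher and the KDM1A transcript lower in each pubertal goat, without passing the adjusted threshold.

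KDM6A shared its level among 9 transcript models of like length, of which XM_013976577.1 lay higher in each pubertal goat (1.70, 2.22 and 2.45 against 1.19, 1.47 and 1.67 FPKM) and XM_013976581.1 lower (0.931, 0.930 and 0.552 against 1.23, 0.980 and 1.49 FPKM). For EZH1 the division between models changed from goat to goat. Transcript XM_013972153.1 (4994 nt) had 23.0, 20.1 and 10.4 FPKM against 10.8, 22.2 and 9.54 FPKM. Transcript XM_013972152.1 (4986 nt) had 5.72 FPKM in pubertal replicate 3, 8.82 FPKM in prepubertal replicate 1 and 9.85 FPKM in prepubertal replicate 3, and was at or near 0 in the remaining libraries. The sum of EZH1 was steady, and how reads were divided between such similar models is uncertain. DNMT3A was held mostly by transcripts annotated as non-coding, XR_001296294.1 with 57.6% of its level and XR_001296295.1 with 18.7%. The coding XM_005686941.2 held 23.6%, with a mean of 2.14 FPKM. The level of DNMT3A and its ratio to DNMT1 thus rest mostly on transcripts annotated as non-coding.

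**Figure D5:**
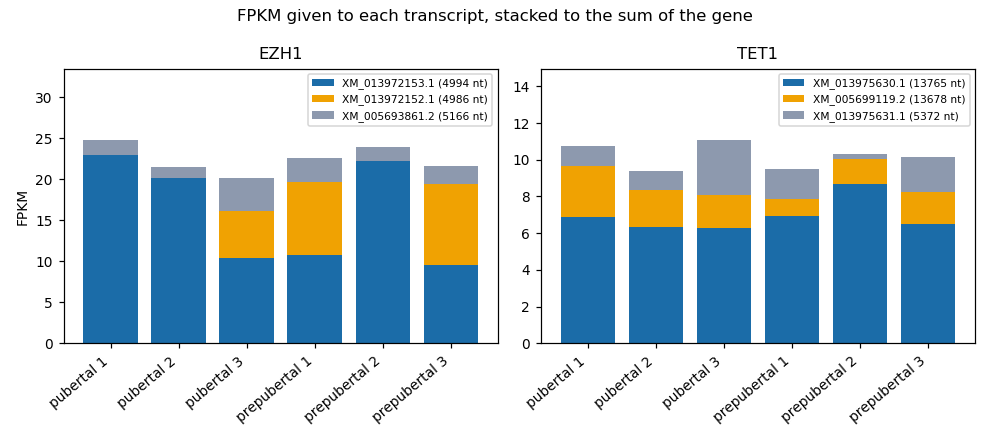
FPKM given to each transcript of EZH1 and TET1 in each library, stacked to the sum of the gene, with transcript lengths in the legend. The orange EZH1 model appears in pubertal replicate 3 and prepubertal replicates 1 and 3 alone, while the total stays between 20.1 and 24.8 FPKM.

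Other genes of the same systems were taken from a list of 77, of which 71 had a row and 70 were tested. None passed the adjusted threshold, 1 reached an unadjusted p under 0.05, and the stages did not overlap in 3, all higher in pubertal goats, beside 3.51% and 5.91% of all genes in that direction. With 1 and 3 of 70, neither count exceeds the share of all genes. GADD45B, a stress-induced factor linked to active DNA demethylation, had 6.58, 5.73 and 7.28 FPKM in the pubertal and 4.27, 3.41 and 4.38 FPKM in the prepubertal goats. Each pubertal goat exceeded each prepubertal one, and the log2 fold change was 0.58 ± 0.13 (SE, limma adjusted p = 0.729). L3MBTL2, a subunit of a variant PRC1, had 10.5, 12.6 and 12.01 FPKM against 10.5, 10.3 and 10.4 FPKM, and the demethylase PHF2 had 6.55, 6.75 and 7.62 FPKM against 6.26, 6.49 and 6.54 FPKM. In both genes the lowest pubertal goat lay just above the highest prepubertal one. Log2 fold changes lay above 0 in 14 of 21 further Polycomb genes, 15 of 22 trithorax and chromatin remodelling genes, 8 of 10 demethylases and 12 of 17 DNA methylation genes, with a median of 0.04 over all 70.

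Long non-coding RNAs were assembled beside some of the 39 genes. By the list of lncRNAs and genes within 10 kb, 5 lncRNA transcripts of 4 loci lay beside PHC2, PHC3, EZH2 and WDR5, and none differed between the stages past the adjusted threshold. The first 250 bases of the pair beside PHC3 and of the lncRNA beside WDR5 are shown because the first share most of their sequence and the last had the largest difference among those above 0.1 FPKM in each goat. Capitals mark the start of a run of 371 identical bases that both PHC3 lncRNAs hold, after 62 and 17 bases of their own.
TCONS_00367386: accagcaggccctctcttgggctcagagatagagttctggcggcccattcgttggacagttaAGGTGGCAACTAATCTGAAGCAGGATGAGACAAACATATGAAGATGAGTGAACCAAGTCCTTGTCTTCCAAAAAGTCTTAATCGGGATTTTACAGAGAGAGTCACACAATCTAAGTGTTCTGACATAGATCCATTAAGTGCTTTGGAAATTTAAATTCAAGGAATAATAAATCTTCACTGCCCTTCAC
TCONS_00329352: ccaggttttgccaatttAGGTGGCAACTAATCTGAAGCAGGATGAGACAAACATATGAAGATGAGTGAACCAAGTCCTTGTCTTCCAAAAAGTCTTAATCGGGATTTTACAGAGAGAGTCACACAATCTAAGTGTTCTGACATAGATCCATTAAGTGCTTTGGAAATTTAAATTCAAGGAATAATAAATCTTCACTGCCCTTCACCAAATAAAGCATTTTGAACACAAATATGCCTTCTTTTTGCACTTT
TCONS_00714470: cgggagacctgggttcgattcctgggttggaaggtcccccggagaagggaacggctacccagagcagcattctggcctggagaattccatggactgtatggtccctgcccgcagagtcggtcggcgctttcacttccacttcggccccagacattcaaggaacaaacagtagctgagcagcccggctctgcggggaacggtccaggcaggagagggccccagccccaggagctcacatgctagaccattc

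Of the pair beside PHC3, TCONS_00367386 (433 nt) had 0.992 FPKM in pubertal replicate 1 and at most 0.00022 FPKM in each of the others. TCONS_00329352 (388 nt) had 2.15, 1.96 and 0.391 FPKM against 2.92, 0.933 and 0.894 FPKM. With so much sequence shared, the division of reads between both is uncertain. TCONS_00714470 (453 nt), beside WDR5, had 0.463, 1.39 and 1.63 FPKM against 1.001, 0.426 and 0.615 FPKM. Pubertal replicate 1 lay among the prepubertal goats (log2 fold change 0.33 ± 0.29, SE, limma adjusted p = 0.943). The lncRNA beside EZH2, TCONS_03760414 (1088 nt), had 0.589, 0.512 and 0.613 FPKM against 0.246, 0.260 and 0.705 FPKM. That beside PHC2, TCONS_02196697 (354 nt), was found in pubertal replicates 1 (0.939 FPKM) and 2 (0.357 FPKM), with 0 given for the other libraries. PHC2 itself was lowest in pubertal replicate 1 (8.50 FPKM), but in pubertal replicate 2 (11.3 FPKM) it lay above all prepubertal goats.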

How the data were processed

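Hypothalamus of 3 pubertal and 3 prepubertal goats was compared, with 1 library per goat, so p-values measure the spread between goats. The authors used TopHat for alignment, Scripture and Cufflinks 2.1.1 for assembly, and deposited FPKM per transcript and library from Cuffdiff 2.1.1, normalized for transcript length and mapped fragments. The genome build is not given in the sources used here. The deposited comparison of both stages (group means, fold changes and p-values) served only to join transcripts to genes and for lengths. One table row without an identifier was dropped. Per-sample columns left unused numbered 0. Symbols came from a RefSeq gene table (ARS1.2) and matched 19083 of 20225 genes (94.4%) and 39 of 39 members.

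FPKM were summed by gene and tested, as log2(FPKM + 1), by a two-sided limma 3.58.1 fit with trended eBayes (R 4.3.3), for genes with a mean of at least 0.1 FPKM over the 6 libraries, with Benjamini-Hochberg adjustment over all genes and a threshold of 0.05. All 39 members passed this minimum. Changes of low genes are understated by the added 1. Transcripts and lncRNAs were fitted alike, and ratios of genes within a library were compared by an exact two-sided permutation test. The fit was tested on simulated data. Tables and plots were made with pandas 2.3.3, scipy 1.17.1, matplotlib 3.10.9 and numpy 2.4.6 under Python 3.11.15.

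Members and lists were chosen with earlier results of these data known. Genes described with their full fit and its interval were those with an adjusted or unadjusted p under 0.05, those without overlap between stages, the largest difference in each system, and EED, CBX7, KMT2A and KMT2C. Other genes given by library, the 3 non-members GADD45B, L3MBTL2 and PHF2 and the marker genes TTR, POMC, PMCH and GNRH1 were added after values were seen.

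Alternatives were another pseudocount (0.1), no minimum or a minimum of 1 FPKM, centring on library medians, quantile normalization, limma without a trend, the replicate number as a block, transcripts under 300 nt left out, coding transcripts only, the most abundant transcript only, and each library left out in turn. Centring within length classes, genes of 3000 nt or more and the score without CBX6 were added after seeing the data. Replicate numbers did not pair the goats: deviations of same-numbered libraries correlated at -0.025, -0.101 and 0.075.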

Additional observations from a re-analysis of the deposited data

How the results depend on the processing

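No gene of the 39 reached an adjusted p under 0.05 under any of 16 alternatives, and their lowest adjusted p was 0.323, without pubertal replicate 1. The count of genes with wholly lower pubertal values was 1 instead of 0 after centring on library medians (KDM1A), after quantile normalization (CBX2) and with the most abundant transcript only (KDM1A), while such genes among all tested numbered 966, 897 and 624, against 629 as reported. Leaving out single libraries gave 0 to 1 genes higher and 0 to 2 lower at an unadjusted p under 0.05, 1 to 5 without overlap and higher, and 0 to 7 without overlap and lower, where 2 against 3 goats overlap less easily and 1395 to 2398 genes of all tested were without overlap and higher and 1040 to 2994 lower. The 7 lower genes came without pubertal replicate 1, and 5 higher ones came without pubertal replicate 1 and also without pubertal replicate 2. Leaving out pubertal replicate 1 also put SETD1A (higher), BMI1 and CBX6 (lower) at an unadjusted p under 0.05. The cause was not tested. Among all genes, those with an unadjusted p under 0.05 numbered 2220 instead of 846 without pubertal replicate 1, and 500 without prepubertal replicate 1. After centring on medians 52.7% of such genes were higher, against 68.0% as reported, while the median of all genes moved to -0.04. The trithorax median ran from 0.029 without pubertal replicate 3 to 0.13 without pubertal replicate 2, and was 0.18 over genes of 3000 nt or more. The log2 fold change of EED ran from -0.11 to 0.11 over single libraries left out, and was 0.00011 when centred within its length class. The ratio of EZH1 to EZH2 gave -0.01 with the most abundant transcript only, against -0.21 as reported. The ratio of DNMT3A to DNMT1 gave log2 differences of -0.11 to 0.057 over single libraries left out, and 0.064 with coding transcripts only, which leaves 1 transcript of DNMT3A. KDM6B kept a log2 fold change above 0 under every alternative, from 0.18 to 0.51. With the replicate block, 0 members passed the adjusted threshold, KDM6B stayed at 0.30 and 1 gene among all genes passed it, against 0 as reported. Not every library correlated best with its own number, and the numbers are only names. FPKM without counts do not give the number of fragments behind low genes such as CBX2.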
